A study of Mus musculus with 8 samples.

Results

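Eph receptors and their ephrin ligands were followed across 8 mouse colon tumor samples by taking every probe of the array that carried the symbol of 1 of 10 genes: the EphB receptors Ephb2, Ephb3, Ephb4 and Ephb6, the EphA receptors Epha1, Epha2 and Epha4, and the ephrins Efna1, Efnb1 and Efnb2. All 10, of 18138 genes named on the array, were present, with 13 of its 25697 probes, 4 for Epha1 and 1 for each of the other 9 genes. In 4 samples (VP16LXRa, replicates 5 to 8) the transgene encoded the liver X receptor alpha, a sterol-sensing nuclear receptor, fused to the viral activation domain VP16, which makes it active without ligand. In the other 4 (VP16, replicates 1 to 4) it encoded VP16. All mice of both groups carried 1 APCmin allele, which truncates an inhibitor of Wnt signalling and leads to intestinal tumors, were 8 months old and had a mixed C57BL/6J and FVBN background. The sources used here do not give the promoter that drove the transgenes. The labels do not say that each tumor had its own mouse, so the p-values reflect variation among samples, part of which may be technical. The comparison asked what the active receptor changed in colon tumors. The small number of arrays sets the precision.

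Eph receptors are tyrosine kinases that bind ephrins on neighbouring cells, and both partners send signals into their own cell that mostly lead to repulsion or sorting of cells. Ephrin-A ligands are held by a lipid anchor and ephrin-B ligands span the membrane, and each class mainly binds receptors of the same letter. In the intestinal crypt the Wnt pathway drives EphB2 and EphB3 at the base, where stem and progenitor cells sit, while ephrin-B1 and ephrin-B2 are made by differentiated cells further up, and this opposition keeps the compartments apart. In mice with Apc mutations loss of EphB signalling is known to speed tumor progression.

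Samples VP16LXRa replicate 5 and VP16 replicate 1 stood apart from the rest. They correlated at r = 0.950 with each other and at 0.833 to 0.924 with the other 6 arrays, which correlated at 0.938 to 0.974 among themselves. Axin2, a feedback target of Wnt signalling, had a log2 intensity of 11.54 in VP16LXRa replicate 5 and 11.35 in VP16 replicate 1, and 8.51 to 9.15 on the other 6 arrays. Ascl2, a transcription factor of crypt base stem cells, read 7.79 and 7.27 in these samples and 4.94 to 5.95 in the others. Rgmb, also listed here as a crypt base marker, went the other way, at 5.09 and 5.41 against 5.84 to 6.79. The colonocyte water channel Aqp8, at 1 of its probes, read 4.54 and 9.17, against 12.41 to 13.20. All 7 pan-epithelial markers on the array were tested, and their mean log2 level spanned 11.69 to 12.04 in VP16LXRa and 11.90 to 12.17 in VP16 tumors. Between 11469 and 12257 probes were detected per array. Since these samples stood apart whatever their genotype, genotype differences below are given with them and without them.

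The 250 bases before a RefSeq transcript start (GRCm38.p6) are shown for the 5 genes whose brightest probe was detected in both samples that stood apart and was either highest or lowest there. Capitals mark the letters CTTTGA, the core that the TCF and LEF partners of beta-catenin bind, and GGGCGG, the GC box, on either strand.
Ephb2 (chr4:136836013-136836262, minus strand): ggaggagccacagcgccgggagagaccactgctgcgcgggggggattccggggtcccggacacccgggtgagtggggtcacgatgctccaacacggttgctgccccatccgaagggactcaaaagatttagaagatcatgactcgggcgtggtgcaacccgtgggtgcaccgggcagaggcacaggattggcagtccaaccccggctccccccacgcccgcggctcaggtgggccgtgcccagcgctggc
Ephb6 (chr6:41605261-41605510, plus strand): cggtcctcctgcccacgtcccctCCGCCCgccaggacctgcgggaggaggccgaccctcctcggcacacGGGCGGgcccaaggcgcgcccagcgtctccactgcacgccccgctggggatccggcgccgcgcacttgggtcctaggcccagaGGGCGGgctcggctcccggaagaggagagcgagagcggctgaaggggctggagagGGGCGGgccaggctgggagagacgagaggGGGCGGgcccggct
Epha2 (chr4:141300971-141301220, plus strand): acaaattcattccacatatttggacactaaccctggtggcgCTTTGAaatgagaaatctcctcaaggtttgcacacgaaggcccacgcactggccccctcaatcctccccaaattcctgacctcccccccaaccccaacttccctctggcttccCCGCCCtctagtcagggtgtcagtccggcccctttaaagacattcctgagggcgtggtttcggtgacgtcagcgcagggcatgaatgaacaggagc
Efnb1 (chrX:99135811-99136060, plus strand): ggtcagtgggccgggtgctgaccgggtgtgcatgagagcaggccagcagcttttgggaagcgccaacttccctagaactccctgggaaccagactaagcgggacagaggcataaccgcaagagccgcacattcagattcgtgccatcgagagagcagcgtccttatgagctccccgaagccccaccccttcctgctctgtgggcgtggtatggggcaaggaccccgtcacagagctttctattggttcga
Efnb2 (chr8:8661243-8661492, minus strand): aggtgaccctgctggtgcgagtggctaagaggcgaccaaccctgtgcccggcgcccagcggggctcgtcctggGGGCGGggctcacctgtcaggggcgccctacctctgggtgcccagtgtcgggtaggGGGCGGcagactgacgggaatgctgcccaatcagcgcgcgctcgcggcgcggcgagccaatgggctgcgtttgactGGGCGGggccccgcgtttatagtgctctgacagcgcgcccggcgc

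Of the 10 genes only Epha2 held CTTTGA in such a window, at 209 bases before the start, against 13.8% of all 32851 promoter windows of this length. GC boxes were present for 8 of the 10 genes, with 5 before Ephb6 and none before Ephb2 or Efnb1, against 32.7% of all windows. The 10 genes had 11 windows, and their counts are per gene while the shares are per window, so these are not like measures. Windows of the 10 genes were 54.4% to 76.8% G and C, which was not set against that of all windows. No CTTTGA match overlapped a GC box. These are matches of letters, and no match says only that the letters are not in this window.

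Over all 11875 tested probes, limma called 1 (0.00842% of them) between VP16LXRa and VP16 tumors, and it was no Eph or ephrin probe. Of the 13 Eph and ephrin probes, 9 were detected on at least 4 arrays and were tested, for 8 genes. The other 4 were those of Ephb3 and Ephb6 and a pair of dim Epha1 probes. None of the 9 passed (limma adjusted p = 1.00 for each), and none had an unadjusted p under 0.05, against 1.68% of all tested probes. Groups overlapped for all 9, and did not overlap for 1.28% of all tested probes. The difference was negative for 8 of the 9 probes, as it was for 49.6% of all tested probes, and the median was -0.22 against 0.00 over all. All 9 had 95% intervals that included 0, and together these intervals reached from -1.47 to 0.91 on the log2 scale. Without VP16LXRa replicate 5 and VP16 replicate 1, 7 of the 9 were negative, with a median of -0.21, and again none passed (limma adjusted p = 1.00 for each), against 0.0337% of all tested probes. The smallest unadjusted p by limma was then 0.179, while 3.24% of all tested probes were under 0.05. For this fit the share of negative differences over all tested probes was not taken, so the 7 have no reference. Both tested Epha1 probes are among them.

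**Figure D1:**
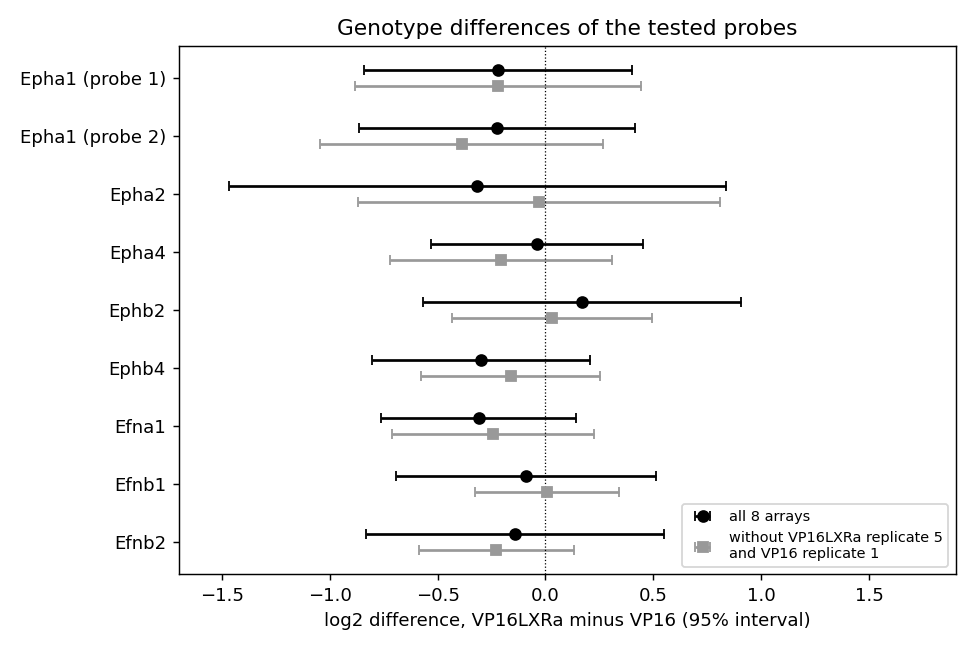
Log2 differences between VP16LXRa and VP16 tumors (x axis, VP16LXRa minus VP16) of the 9 tested probes (y axis), with 95% intervals from limma. Black points use all 8 arrays and grey squares leave out VP16LXRa replicate 5 and VP16 replicate 1. Every interval includes 0.

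Among the EphB receptors, Ephb2, which marks the crypt base and whose graded level orders cells along the crypt, was detected in all 8 tumors. It had log2 intensities of 9.14, 8.03, 7.82 and 8.06 in VP16LXRa replicates 5 to 8, against 8.55, 7.61, 8.01 and 8.20 in VP16 replicates 1 to 4. The highest value of each group belonged to the sample that stood apart, and the other 3 VP16LXRa values lay within the range of the other 3 VP16 values. The means were 8.26 ± 0.59 in VP16LXRa and 8.09 ± 0.39 in VP16 tumors (SD, n = 4 each), a log2 difference of 0.17 (SE 0.32, 95% interval -0.57 to 0.91). Without both samples that stood apart it was 0.03 (SE 0.19, 95% interval -0.43 to 0.49), and without VP16LXRa replicate 5 alone -0.12.

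Ephb6, a receptor whose kinase domain is inactive and which signals through partner receptors, was detected in the samples that stood apart and in no other. It read 7.82 in VP16LXRa replicate 5, where its raw signal was 341.5, and 4.46, 4.59 and 4.50 in VP16LXRa replicates 6 to 8. In VP16 tumors it read 6.54 in replicate 1, with a raw signal of 216.7, and 4.50, 4.45 and 4.41 in replicates 2 to 4. The 6 low arrays had raw signals of 114.3 to 120.3 and detection p-values of 0.312 or more, so that they give only an upper bound and no fold is stated. In the authors' processed values the same probe read 210.5 in VP16LXRa replicate 5 and 77.5 in VP16 replicate 1, and -4.7 to 3.4 on the other arrays. Each genotype thus held 1 tumor in which the probe was detected and 3 in which it was not. The share of all probes with this detection pattern was not taken, so the pattern has no reference. The mean difference of 0.37, which was not tested, rests on 1 sample of each group. It was 0.07 without both of them, -0.46 without VP16LXRa replicate 5 alone and 0.89 without VP16 replicate 1 alone, so that its direction turned with 1 array.

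Ephb3, which in the mouse small intestine holds Paneth cells at the crypt base, was near background. It read 5.65, 5.11, 4.86 and 4.89 in VP16LXRa replicates 5 to 8, and 5.36, 5.04, 5.33 and 4.71 in VP16 replicates 1 to 4. The highest value, that of VP16LXRa replicate 5, passed the detection threshold of 0.01. VP16 replicate 1, the next highest, and the other 6 did not. Detection p-values were 0.01 and 0.0138 in VP16 replicates 1 and 3, and 0.0201 in VP16LXRa replicate 6. These missed the threshold narrowly and lay under 0.05, as did 0.0476 in VP16 replicate 2. Nothing can be said of a difference for this receptor at this signal over background (mean difference 0.02, and -0.07 without both samples that stood apart, not tested).

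Ephb4, the receptor that pairs with ephrin-B2 and marks venous endothelium, was detected in all 8 tumors. It read 6.68, 6.59, 6.55 and 6.32 in VP16LXRa replicates 5 to 8, and 7.39, 6.40, 6.72 and 6.82 in VP16 replicates 1 to 4. VP16 replicate 1 was the highest of all, and the groups overlapped through VP16 replicate 2. The log2 difference was -0.30 (SE 0.22, 95% interval -0.80 to 0.21), and without both samples that stood apart -0.16 (SE 0.17). Endothelial markers, of which 12 of the 14 on the array were tested, had mean log2 levels of 7.49 to 8.31 in VP16LXRa and 7.11 to 8.25 in VP16 tumors, and each of the 14 was detected on at least 1 array. Their centred mean was 0.52 in VP16LXRa replicate 5 and 0.47 in VP16 replicate 1, and -0.67 to 0.18 elsewhere; its part in the Ephb4 values was not tested. In bulk samples of this kind, fewer cells of a type and less RNA per cell cannot be told apart.

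**Figure D2:**
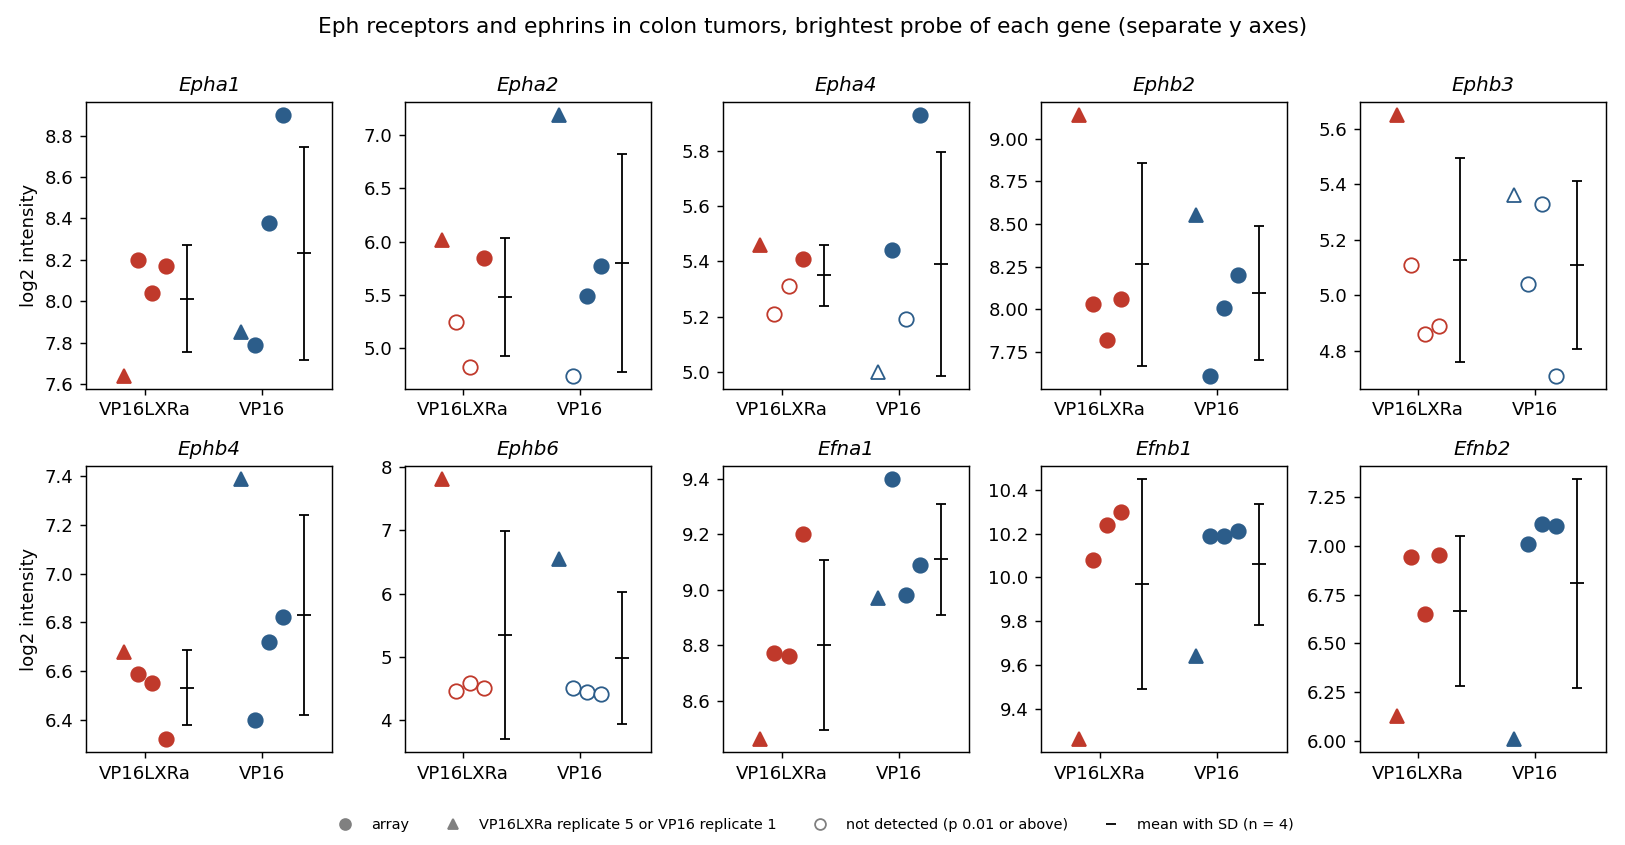
Log2 intensity (y axes, a separate scale for each gene) of the brightest probe of each Eph or ephrin gene in each array, with VP16LXRa in red and VP16 in blue, triangles for VP16LXRa replicate 5 and VP16 replicate 1, open symbols where the probe was not detected, and black bars for the mean and SD of 4 arrays. Ephb6 was detected in the tumors drawn as triangles and in no other. Efnb1 and Efnb2 were lowest in them, as were 19.4% of all tested probes.

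Of the EphA receptors, Epha2, an epithelial receptor of ephrin-A1 that is abundant in many carcinomas, varied most among the tested members, over 2.45 log2 units. It read 6.01, 5.24, 4.82 and 5.85 in VP16LXRa replicates 5 to 8, and 7.19, 4.74, 5.49 and 5.77 in VP16 replicates 1 to 4. Both highest values came from the samples that stood apart, and the signal passed detection in 2 VP16LXRa and 3 VP16 tumors, out of 4 each. The log2 difference of -0.32 (SE 0.50, 95% interval -1.47 to 0.83) was -0.03 (SE 0.35) without both of them and 0.15 without VP16 replicate 1 alone.

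Epha1, the receptor that gave the family its name, had 2 probes detected in all tumors. At the brighter it read 7.64, 8.20, 8.04 and 8.17 in VP16LXRa replicates 5 to 8, and 7.85, 7.79, 8.38 and 8.90 in VP16 replicates 1 to 4. The dimmer of these probes read 5.87, 5.92, 6.07 and 6.02 in VP16LXRa tumors, and 5.62, 6.00, 6.16 and 7.02 in VP16 tumors. VP16 replicate 4 was the highest array at both probes and the VP16LXRa values lay within the VP16 range or just below it. The log2 differences were -0.22 (SE 0.27, 95% interval -0.84 to 0.40) and -0.23 (SE 0.28, 95% interval -0.87 to 0.41), and 0.00 and 0.05 without VP16 replicate 4. Without both samples that stood apart they were -0.22 (SE 0.28) and -0.39 (SE 0.28). Of the untested probes, 1 lay between 4.82 and 5.86 and was detected in 3 tumors, the highest again VP16 replicate 4, and the last was detected in none.

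Epha4, which binds ephrins of both classes, was close to background. It read 5.46, 5.21, 5.31 and 5.41 in VP16LXRa replicates 5 to 8, and 5.00, 5.44, 5.19 and 5.93 in VP16 replicates 1 to 4, and was detected in 2 tumors of each group. The samples that stood apart did not share an extreme here. The log2 difference was -0.04 (SE 0.22, 95% interval -0.53 to 0.45), and -0.21 (SE 0.22) without both of them.

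The ephrin-B ligands were lowest in the tumors in which Ephb2 was highest, a pattern shared with very many genes. Of all tested probes, 19.4% were lowest and 20.4% highest in VP16LXRa replicate 5 and VP16 replicate 1. Efnb1, a transmembrane ligand of EphB2 and EphB3 encoded on the X chromosome per the array's annotation, read 9.26, 10.08, 10.24 and 10.30 in VP16LXRa replicates 5 to 8, and 9.64, 10.19, 10.19 and 10.21 in VP16 replicates 1 to 4. The samples that stood apart were the lowest of each group, and the other 6 arrays lay within 10.08 to 10.30. The means were 9.97 ± 0.48 in VP16LXRa and 10.06 ± 0.28 in VP16 tumors (SD, n = 4 each), a log2 difference of -0.09 (SE 0.26, 95% interval -0.69 to 0.51). Without both samples it was 0.01 (SE 0.14, 95% interval -0.32 to 0.34).

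Efnb2, the ligand that EphB4 prefers and a marker of arterial endothelium as well as of upper crypt epithelium, followed the same pattern. It read 6.13, 6.94, 6.65 and 6.95 in VP16LXRa replicates 5 to 8, and 6.01, 7.01, 7.11 and 7.10 in VP16 replicates 1 to 4. The lowest values were again those of the samples that stood apart, 1 in each genotype. The log2 difference was -0.14 (SE 0.30, 95% interval -0.83 to 0.55). Among the other 6 tumors the 3 VP16LXRa values all lay below the 3 VP16 values, with a log2 difference of -0.23 (SE 0.15, 95% interval -0.59 to 0.13, limma adjusted p = 1.00). It was the 1 tested probe of 9 whose groups did not overlap there, against 8.03% of all tested probes.

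Efna1, the lipid-anchored ligand of EphA2 that is induced by tumor necrosis factor, had the smallest p of the members. It read 8.46, 8.77, 8.76 and 9.20 in VP16LXRa replicates 5 to 8, and 8.97, 9.40, 8.98 and 9.09 in VP16 replicates 1 to 4. In 3 of 4 VP16LXRa tumors the value lay below every VP16 tumor, and VP16LXRa replicate 8 lay among them. The means were 8.80 ± 0.31 in VP16LXRa and 9.11 ± 0.20 in VP16 tumors (SD, n = 4 each). The log2 difference was -0.31 (SE 0.20, 95% interval -0.76 to 0.14, unadjusted p = 0.153 and adjusted p = 1.00 by limma). It was -0.24 (SE 0.20) without both samples that stood apart.

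The larger contrasts among the members lay between the samples that stood apart and the other tumors of both genotypes, and are given as description. Of the 9 tested probes, 2 (Ephb2 and Epha2) were highest in these samples, and 3 (Efnb1, Efnb2 and the dimmer Epha1 probe) lowest. The same held for 20.4% and 19.4% of all 11875 tested probes, so that members with such a pattern were among very many genes. Wnt target genes, with 12 of 22 on the array tested, had centred means of 1.54 in VP16LXRa replicate 5 and 1.23 in VP16 replicate 1, and -0.73 to -0.07 elsewhere. Crypt base markers (7 of 11 tested) had centred means of 0.73 and 0.49, and -0.39 to 0.00 elsewhere. Apart from Rgmb and Cdca7 the tested ones were also among the Wnt target genes, so these lists are not separate readings. Rgmb was lowest in the samples that stood apart, and the other tested crypt base markers were highest there. For colonocyte markers (13 of 14 tested) the centred means were -3.35 and -1.07, and 0.48 to 0.92 elsewhere. For fibroblast markers (11 of 12 tested) they were 1.00 and 1.04, and -1.06 to 0.03 elsewhere. Goblet cell markers (6 of 7 tested) were low in the same samples, at -3.64 and -1.42, and 0.09 to 1.15 elsewhere, as were B and plasma cell markers (5 of 6 tested), at -1.93 and -1.55, and -0.38 to 1.41 elsewhere. Neutrophil markers (3 of 6 tested) were high there, at 2.72 and 1.28, and -1.30 to 0.28 elsewhere, and so were macrophage markers (10 of 11 tested), at 1.23 and 0.39, and -0.63 to 0.26 elsewhere. The mean of endothelial markers (12 of 14 tested) was higher there too, at 0.52 and 0.47, and -0.67 to 0.18 elsewhere. Among them Tek, Cldn5, Flt1, Ramp2 and Pecam1 were not highest in both samples, and Tek was lowest in VP16LXRa replicate 5. Paneth cell, pan-epithelial, smooth muscle and T cell markers did not set both samples apart. Lgr5, a stem cell receptor, was detected on 3 arrays and read 6.37 and 7.09 in these samples, and 4.61 to 6.08 in the others. What part cell makeup had in the Eph and ephrin values was not tested.

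**Figure D3:**
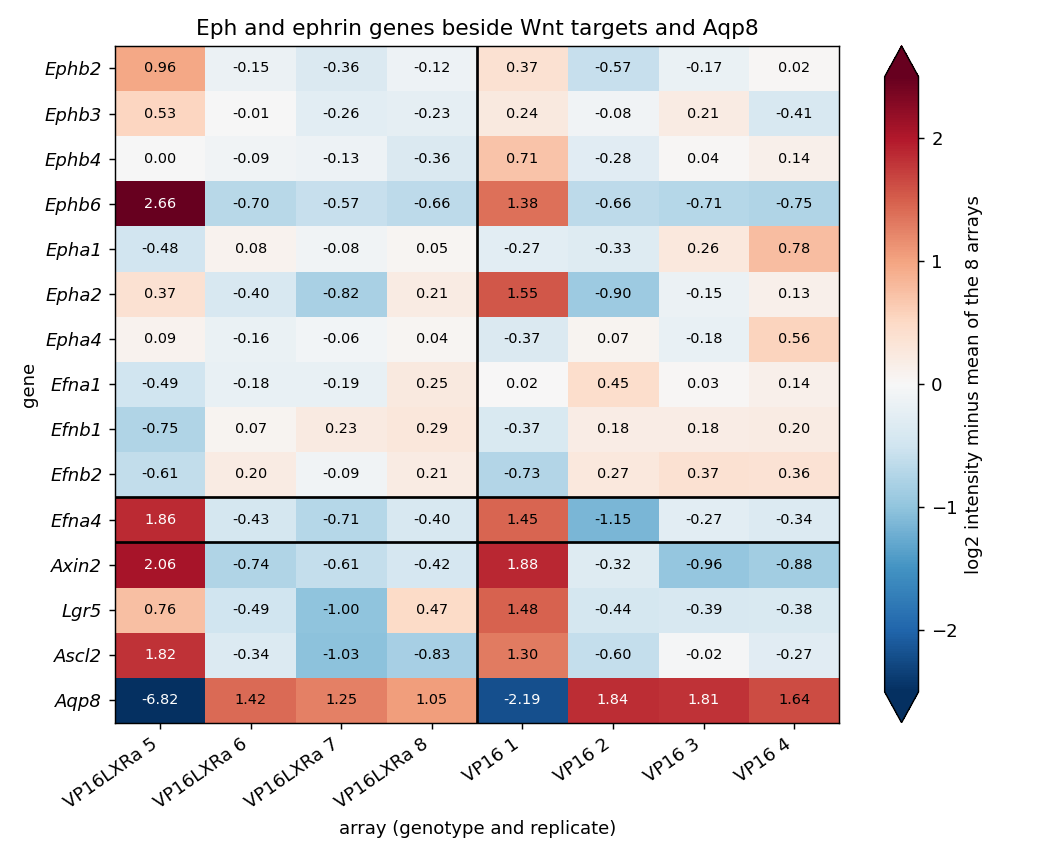
Log2 intensity minus the mean of the 8 arrays, written in each cell and coloured (scale ends at -2.5 and 2.5), for the brightest probe of each Eph and ephrin gene, the brighter probe of Efna4, and Axin2, Lgr5, Ascl2 and Aqp8 (y axis) in each array (x axis, VP16LXRa left). In the columns VP16LXRa 5 and VP16 1 the rows Ephb2, Ephb3, Ephb6, Epha2, Efna4, Axin2, Lgr5 and Ascl2 are above 0. The rows Epha1, Efnb1, Efnb2 and Aqp8 are below 0 in both.

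The remaining 12 genes of the family, outside the 10, were on the array with 18 probes, of which 14 were detected on no array and 3 were tested. Efna4, a lipid-anchored ephrin, read 8.65, 6.36, 6.08 and 6.39 at its brighter probe in VP16LXRa replicates 5 to 8, and 8.24, 5.64, 6.52 and 6.45 in VP16 replicates 1 to 4. Its other probe read 8.05 in VP16LXRa replicate 5 and 7.93 in VP16 replicate 1, and 5.77 to 6.43 elsewhere. Both probes thus set the same samples apart as Ephb6 did, with a genotype difference at the brighter of 0.16 (SE 0.69), and 0.07 (SE 0.26) without both samples. Efna5, also lipid-anchored, read 5.48, 7.36, 6.34 and 7.53 in VP16LXRa tumors, and 6.86, 7.30, 7.92 and 5.24 in VP16 tumors. Its log2 difference was -0.15 (SE 0.64), and it turned to 0.26 (SE 0.69) without both samples that stood apart. Its low values fell in both genotypes. A probe of Epha7 was detected on 3 arrays, and 9 genes, Epha3, Epha5, Epha6, Epha8, Epha10, Ephb1, Efna2, Efna3 and Efnb3, were detected on none.

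No tested gene whose product acts with Eph receptors or ephrins passed the genotype test either, against 0.00842% of all tested probes. Of 29 such adaptors, exchange factors, kinases, phosphatases and proteases, 25 were on the array and 16 were tested. Detected on no array were 7, Fyn, Vav2, Itsn1, Acp1, Grip1, Adam10 and Ptpn2, so nothing can be said of these. Log2 differences were positive for 8 and negative for 8, with a median of 0.01 (0.00 over all tested probes), and none passed (limma adjusted p = 1.00). The smallest p among them belonged to Crk, an adaptor of tyrosine kinase signalling, at -0.24 (SE 0.15), followed by Sdcbp, a scaffold that binds the tail of ephrin-B, at -0.20 (SE 0.15), and Rasa1, a Ras inhibitor that docks on EphB2, at 0.22 (SE 0.21). Without both samples that stood apart these were -0.14 (SE 0.14), -0.13 (SE 0.16) and 0.27 (SE 0.22), and the median of the 16 was 0.00.

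None of the 118 tested genes in 15 lists passed between the genotypes, against 0.00842% of all tested probes. Some genes are in several lists, and the tested crypt base markers apart from Rgmb and Cdca7 are also Wnt target genes. Differences were positive for 10 of 12 Wnt target genes (median 0.23), 4 of 7 crypt base markers (0.05), 5 of 7 Paneth cell markers (0.82), 2 of 13 colonocyte markers (-0.66), 2 of 6 goblet cell markers (-0.05), 0 of 7 pan-epithelial markers (-0.18) and 9 of 12 endothelial markers (0.13). They were positive for 9 of 11 fibroblast (0.21), 5 of 8 smooth muscle (0.10), 9 of 10 macrophage (0.47), 3 of 3 neutrophil (0.89), 7 of 7 T cell (0.29) and 1 of 5 B and plasma cell markers (-0.03). Over all tested probes 49.6% of the differences were negative, with a median of 0.00. Genes of a list can rise and fall together across tumors, so a count such as 7 of 7 is not 7 separate readings. Without both samples that stood apart the medians of the goblet (0.37) and of the B and plasma cell markers (0.16) turned positive, and those of the T cell (-0.01) and crypt base markers (0.00, just under 0) turned negative. The colonocyte median was then -0.12, the pan-epithelial -0.04, the smooth muscle 0.63, the Wnt target 0.19, the Paneth cell 0.90 and the endothelial 0.08. It was 0.28 for fibroblast, 0.36 for macrophage and 0.79 for neutrophil markers.

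Other genes with a pattern close to that of the receptor and the ephrin with the widest range among the tested members, Epha2 and Efnb2, were sought (Ephb6, which varied more, was not tested) among 9110 tested genes, by the mean absolute difference of centred log2 values over the 8 arrays. Among the nearest to Epha2 were S100a14 (0.14), the annexin Anxa1 (0.16), the ligand Shh (0.27) and Lyar (0.27). Anxa1 read 8.41 in VP16LXRa replicate 5 and 9.02 in VP16 replicate 1, and 7.07 to 8.40 elsewhere. Among the nearest to Efnb2 were Ghitm (0.09), Hectd3 (0.10), Sdhb (0.10) and Pmm2 (0.10). Sdhb, a subunit of mitochondrial succinate dehydrogenase, read 9.56 in VP16LXRa replicate 5 and 9.82 in VP16 replicate 1, and 10.62 to 10.79 elsewhere.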

How the data were processed

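Total RNA of 8 colon tumor samples (4 VP16LXRa, 4 VP16, grouped by their titles) was hybridised to 1-colour Illumina BeadChips. Per the file headers, the deposited table gives each probe's bead signal (a linear intensity, not normalized) on every array and its detection p-value. GenomeStudio is named, with no version, in the submitters' processing notes. The other deposited table has processed intensities by the authors, whose steps are not given in the sources used here; it goes below 0 (lowest -24.3). The array's genome build is likewise not given, so no gene coordinates are printed, and promoters carry the build of their RefSeq table.

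The neqc function (limma 3.58.1, R 4.3.3) subtracted background by normexp, taking it from detection p-values, then quantile-normalized the arrays and took log2 with an offset of 16; the offset shrinks differences of dim probes. Probes with a detection p under 0.01 on at least 4 arrays were tested with lmFit and eBayes, two-sided, VP16LXRa minus VP16, with Benjamini-Hochberg adjustment over all 11875 and a threshold of 0.05. The fit was tested on simulated data.

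The genes, lists, tests and alternatives were chosen with earlier results of these data known. Every Eph and ephrin gene of the selection is named with every probe, and the 3 smallest p of the list of signalling genes. Of the marker lists counts are given, each gene at its brightest tested probe, with Axin2, Lgr5, Ascl2 and Aqp8 as reference points. A few other markers are named where they differ from the mean of their list or where lists share genes. Of the 5 genes nearest in pattern to the tested receptor and ephrin of widest range, some are not reported here. Centred means are means over a list after subtracting each gene's mean over 8 arrays. Slide and scan are named nowhere in the files, and no batch was examined. No arrays were identical, and replicate numbers (1 to 4, 5 to 8) pair nothing.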

Additional observations from a re-analysis of the deposited data

Results flagged for a closer look

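In a group of 4 tumors a value was singled out where its gap to the nearest other value exceeded Dixon's critical share of the group's range, which chance alone gives for about 1 in 20 groups. Of 26 combinations of probe and group, 4 met this. The share over all probes was not taken, so the 4 have no reference. Each group held a sample that stood apart over the whole array, so 1 in 20 cannot serve as one. For Ephb6, VP16LXRa replicate 5 stood at 7.82 (nearest 4.59) and VP16 replicate 1 at 6.54 (nearest 4.50), the sole arrays of their groups on which the probe was detected. For the ephrins, VP16 replicate 1 stood below its group, at 9.64 for Efnb1 (nearest 10.19) and at 6.01 for Efnb2 (nearest 7.01), both probes being detected in all 8 tumors. All 4 fell on the samples that stood apart over the whole array.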

How the results depend on the processing

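Under 20 alternatives (cyclic loess, median scaling, an offset of 50, uncorrected background, the authors' values, array weights, 3 other detection filters, trended robust eBayes, the mean of a gene's probes, each array left out and both samples that stood apart left out) no Eph or ephrin probe passed, nor did any gene of the lists (smallest limma adjusted p of a member 0.971). One unadjusted p fell under 0.05, that of Efna1 without VP16LXRa replicate 8 (-0.44, unadjusted p = 0.0491, adjusted p = 1.00). Of 170 recomputed differences 159 kept their sign. The 11 others were Epha2 (0.0066) and Efnb1 (0.032) with array weights, Efnb1 (0.0085) without both samples that stood apart, and 8 with 1 array left out. Over the arrays left out, Ephb2 ranged from -0.12 (without VP16LXRa replicate 5) to 0.32, Efnb1 from -0.23 to 0.15 and Efnb2 from -0.41 to 0.040 (both highest without VP16LXRa replicate 5). Epha2 ranged from -0.67 to 0.15 (without VP16 replicate 1), the Epha1 probes from -0.36 to 0.0024 and from -0.42 to 0.047, and Epha4 from -0.17 to 0.14 (these 3 highest without VP16 replicate 4; Epha4 also 0.0053 without VP16LXRa replicate 6). Efna1 (-0.44 to -0.20) and Ephb4 (-0.44 to -0.11) kept theirs throughout. The count over all probes was 0 without background correction, with the authors' values, with an offset of 50, without a filter and with probes detected on all 8 arrays, 4 without both samples that stood apart, and 0 to 2 with each array left out. No paired analysis was possible because the groups share no replicate numbers. Signal over background limited Ephb3, Ephb6, Epha2 and Epha4.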
